A study of Mus musculus with 8 samples.

Results

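The group described here is the machinery that carries proteins into mitochondria, measured in mouse splenic hemophagocytes and resting splenic macrophages. Its members were all genes whose symbol in the platform annotation starts with Tomm or Timm, together with Pam16, Dnajc19, Hspa9, Grpel1, Grpel2, Samm50, Mtx1, Mtx2, Immt, Hspd1, Hspe1, Pmpca and Pmpcb. This gave 38 genes of 19938, each read from 1 probe set. Only probe sets assigned to 1 gene were used. A gene with several was read from its brightest, by the mean of the 8 arrays. The group was singled out because Tomm7 stood high among the differences in these same arrays, so the values of Tomm7 are given as a description and its place in the fit supports nothing by itself. Timm10b was represented only by a probe set shared with Dnhd1 and was not tested.

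All mice were wild-type C57Bl/6j males of 8 weeks. Hemophagocytes, macrophages that have taken up blood cells, came from mice given 4 intraperitoneal doses, on alternate days, of 37.5 ug CpG1826, a synthetic DNA ligand of the receptor TLR9, with 200 ug of antibody 1B1.3A, which blocks the IL-10 receptor. Resting macrophages came from mice given 200 uL PBS on the same schedule. From touch preparations of the spleen, 20 target cells per mouse were laser-captured and pooled, and their amplified RNA was hybridised to Affymetrix mouse Gene ST 1.0 arrays, 4 per group (hemophagocytes 2, 3, 5 and 6; resting macrophages 3, 4, 5 and 6, numbered as in the sample titles). No cells without engulfed material were arrayed from treated mice, so engulfment, CpG1826 and the antibody cannot be told apart. Nothing in the labels ties an array to particular mice. The p-values therefore rest on the spread between arrays, and part of it may be technical. Values come from pooled cells, so fewer cells of a type and less RNA per cell cannot be told apart.

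Most mitochondrial proteins are made in the cytosol and must be threaded through the outer and inner membranes. The TOM complex of the outer membrane is the common entrance. Small TIM proteins then escort hydrophobic precursors across the space between the membranes, the TIM22 complex inserts carriers into the inner membrane, and the TIM23 complex with its ATP-driven motor pulls other precursors into the matrix, where they are trimmed by a processing peptidase and folded by a chaperonin. The SAM complex inserts barrel proteins into the outer membrane, and the MICOS complex shapes the inner membrane beside it.

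The array medians lay between 6.10 and 6.17 (log2 intensity), and the deposited values were used as they are. Array background was gauged from 1194 receptor genes of olfactory and vomeronasal sensory neurons. They averaged 5.99 to 6.16 on the resting arrays and 5.75 to 6.07 on the hemophagocyte arrays. Their 95th percentile was 7.689 to 7.805 on the resting arrays and 7.422 to 7.715 on the hemophagocyte arrays. A gene above the receptor mean can thus still lie within the range of these genes. Hemophagocytes 3 and 5 stood apart, with 154 and 159 genes exceeding their 8-array median by more than 1 log2 unit, against 13 and 30 on hemophagocytes 2 and 6 and 7 to 16 on each resting array. Of 11 macrophage markers, 6 lay above the receptor mean on every array. The summed linear level of these 11 markers was 2922 and 4428 on hemophagocytes 3 and 5, 1072 and 1179 on hemophagocytes 2 and 6, and 1190 to 1594 on the resting arrays. Without Lyz2, the lysozyme gene, hemophagocytes 2 and 6 were at 1013 and 1086, within the resting range of 968 to 1128, and hemophagocytes 3 and 5 were at 1931 and 3435. Spic, a transcription factor that defines red pulp macrophages, lay below the receptor mean on every array, so whether it was detected cannot be told. Summed neutrophil markers (8 measured) reached 1312 on hemophagocyte 3 and 642 to 749 elsewhere, and platelet markers (5 measured) reached 1817 and 1063 on hemophagocytes 3 and 5 and 553 to 710 elsewhere. Single genes carried these sums. Without S100a8 and S100a9 the 6 other neutrophil markers summed to 498 on hemophagocyte 3, beside 541 to 562 in resting macrophages. Without Pf4 the 4 other platelet markers summed to 510.3 and 511 on hemophagocytes 3 and 5, beside 521 to 539.7 in resting macrophages.

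Among the 38 import genes, Tomm7 was the 1 member whose hemophagocyte arrays stood well above its resting arrays as a group. In their chosen probe sets Hspd1 was high on hemophagocyte 3 only, Pam16 on hemophagocyte 5 only, and Hspe1 on hemophagocyte 5 and resting macrophage 3. The other 34 genes changed by -0.21 to 0.26 on the log2 scale (hemophagocyte minus resting macrophage). In the limma fit over all 19938 genes, 0 of the 38 members passed an adjusted p of 0.05 (Benjamini-Hochberg), where 2 genes, or 0.01% of all genes, passed, both of them higher. At an unadjusted p under 0.05, 2 members (Tomm7 and Timm13) had higher and 2 (Mtx2 and Timm8b) lower values in hemophagocytes. The background for these counts was 1.53% of all genes higher and 5.05% lower. The groups did not overlap in 3 members, Tomm7 and Timm13 on the higher side and Mtx2 on the lower, where 0.802% and 2.9% of all genes did the same. With Tomm7 picked from this contrast, nothing is read from its share of these counts. The median change over the members was -0.0034, and over all genes -0.04. Of the 38 members 18 had a change above 0, against 36.1% of all genes. That background depends on scaling, with 21, 22 and 22 members and 45.3%, 46.2% and 50.9% of all genes above 0 after quantile normalization, median centring and cyclic loess. Over all genes the split at an unadjusted p under 0.05 was 306 higher and 1006 lower as deposited, and 488 and 748, 495 and 691, and 611 and 549 with the same 3 scalings.

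**Figure D1:**
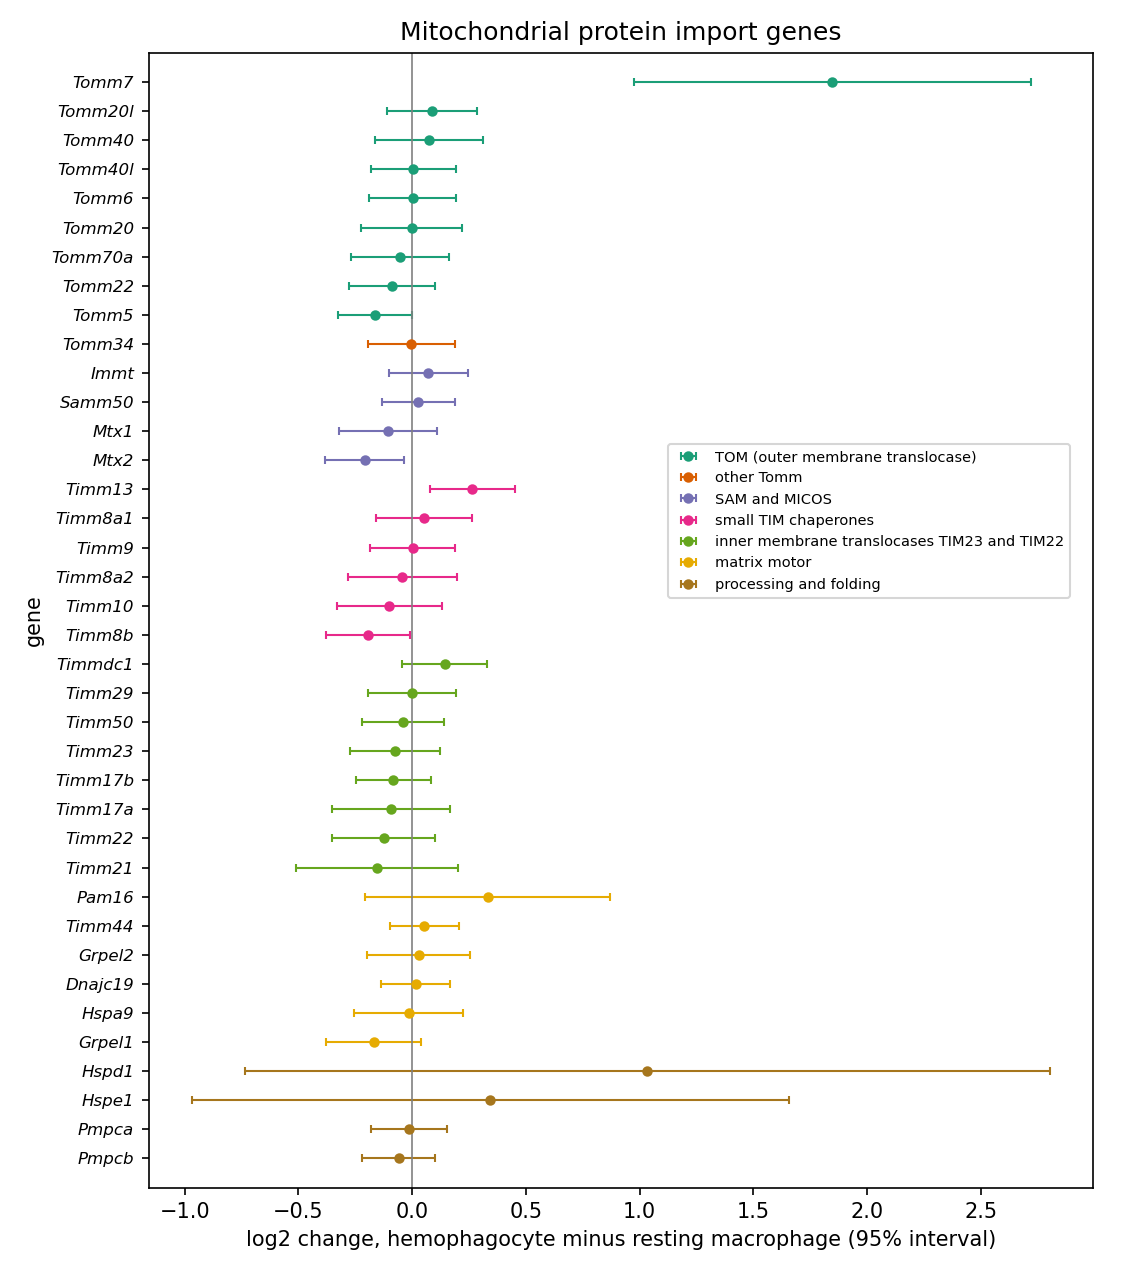
Log2 change of each of the 38 import genes, hemophagocyte minus resting macrophage, with its 95% interval from limma (n = 4 arrays per group), coloured by role. Tomm7 stands at 1.85; Hspd1, Hspe1 and Pam16 have wide intervals that cross 0, and the intervals of the other 34 genes lie between -0.51 and 0.45.

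Tomm7 encodes a small subunit of the TOM complex that modulates its assembly and is also needed to hold the kinase Pink1 at the outer membrane of damaged mitochondria. Its log2 intensity (probe set 10528523) was 7.93, 6.68, 8.41 and 9.15 on hemophagocytes 2, 3, 5 and 6. On resting macrophages 3, 4, 5 and 6 it was 6.23, 6.27, 6.02 and 6.25. The groups did not overlap, but hemophagocyte 3 exceeded the highest resting array by only 0.40. The group means were 8.04 ± 1.04 and 6.19 ± 0.12 (mean ± SD, n = 4 each), a difference in log2 signal of 1.85 (SE 0.40). The spread among hemophagocytes was thus far wider than among resting macrophages. Tomm7 ranked 18 of 19938 genes by p, with limma adjusted p = 0.75, and was not called. This rank depended on the setting, at 215 with a trended robust prior in limma and 2 without hemophagocyte 3. Without hemophagocyte 3 the change was 2.30 (limma adjusted p = 0.014), and without hemophagocytes 3 and 5 together it was 2.34 (adjusted p = 0.046). With any other single array left out, the change was 1.48 to 1.88 and adjusted p 0.58 to 0.93. Hemophagocyte 3 held the lowest hemophagocyte value, so leaving it out had to raise the change. As the groups did not overlap, no left-out array could bring the change to 0, and these fits support nothing by themselves. The resting values differed from the receptor mean of their own array by -0.14 to 0.23, so whether Tomm7 was detected on resting arrays cannot be told and no fold is given. The hemophagocyte values lay 0.93 to 3.10 above that mean. Those of hemophagocytes 2, 5 and 6 also exceeded the 95th percentile of the receptor genes on their arrays. Hemophagocyte 3, at 6.68 against 7.42, did not, so detection there cannot be told. The summed macrophage markers of hemophagocytes 2, 3, 5 and 6 were 1072, 2922, 4428 and 1179. The part of cell content in the Tomm7 difference was not tested.

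The other 8 measured genes of the TOM group changed by -0.16 to 0.09, and none of these 8 passed. Tomm5, another small subunit of the complex, had the smallest p of these, at 7.84, 7.66, 7.69 and 7.60 on hemophagocytes 2, 3, 5 and 6 and 7.80, 7.83, 7.91 and 7.90 on resting macrophages 3, 4, 5 and 6. Hemophagocyte 2 lay within the resting range and the other hemophagocytes below it. The change was -0.16 (SE 0.07, limma adjusted p = 0.75). Tomm22, the receptor that docks precursors at the pore, had a change of -0.09. Tomm20l, a paralog of the presequence receptor Tomm20, had a change of 0.09. Tomm6, the remaining small subunit, averaged 6.84 in both groups, a change of 0.0014 with a 95% interval of -0.19 to 0.19. The channel protein Tomm40 stood at 0.07, its paralog Tomm40l at 0.0039, Tomm20 at -0.0027 and the carrier receptor Tomm70a at -0.06. The upper bounds of the 95% intervals of these 8 genes reached 0.31 for Tomm40 and the lower bounds -0.33 for Tomm5. Tomm20 and Tomm70a lay below the receptor mean on every array, so their intervals hold for the signal of the probe set, and detection cannot be told. Tomm34, a cytosolic cochaperone kept outside the TOM group here, had a change of -0.0042.

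**Figure D2:**
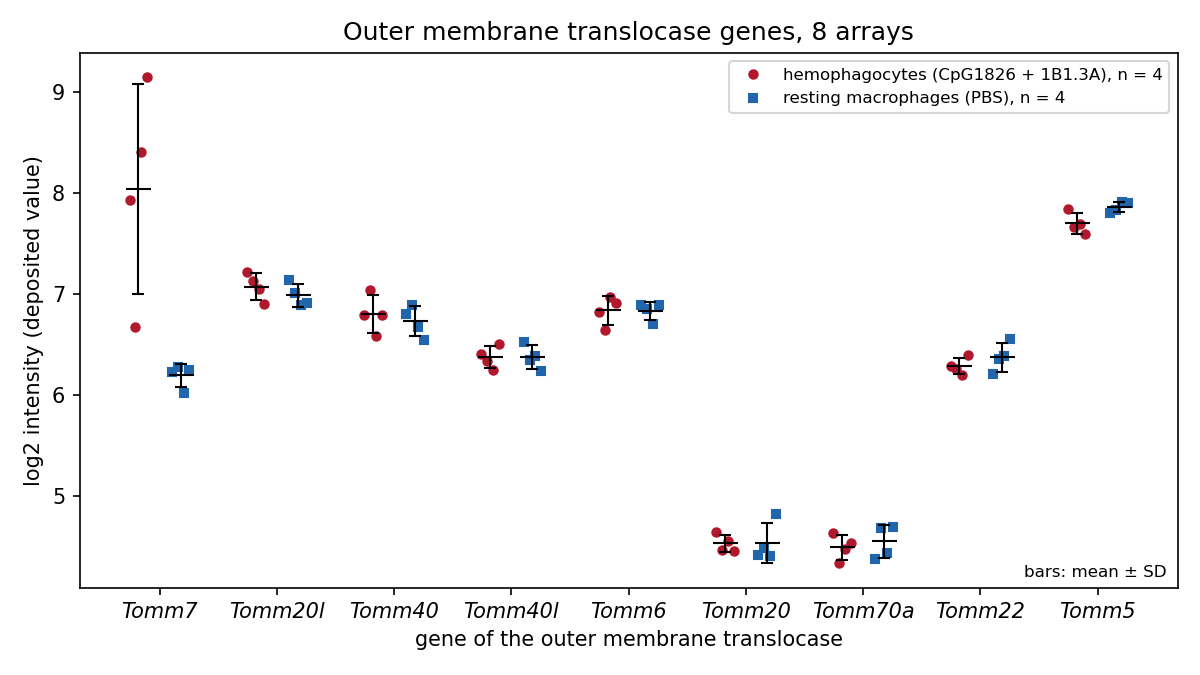
Log2 intensity of the 9 measured TOM genes on each array (circles, hemophagocytes; squares, resting macrophages; n = 4 each), with group mean ± SD as bars, ordered by change. Tomm7 hemophagocyte points spread from 6.68 to 9.15 above resting points of 6.02 to 6.27, while in each of the other genes the groups overlap.

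In the SAM and MICOS genes, Mtx2 had separate groups with a small difference. Mtx2 encodes metaxin, a cytosol-facing partner of the SAM complex. It stood at 5.10, 4.92, 5.24 and 5.04 on hemophagocytes 2, 3, 5 and 6 and at 5.28, 5.31, 5.30 and 5.25 on resting macrophages 3, 4, 5 and 6. Hemophagocyte 5 and resting macrophage 6 were almost level, so the groups only just failed to overlap. The change was -0.21 (SE 0.08, 95% interval -0.38 to -0.04), with limma adjusted p = 0.75. All 8 values were below the receptor mean of their arrays, so detection cannot be told. The receptor genes themselves had a median change of -0.15. The change of Mtx2 was -0.16 without hemophagocyte 3 and -0.12 with the array background as a covariate. In both fits Mtx2 no longer had an unadjusted limma p under 0.05. Its partner Mtx1 had a change of -0.11, with hemophagocytes from 6.56 to 7.02 around resting values of 6.92 to 6.97. Samm50, the barrel that forms the SAM channel, had a change of 0.03, and Immt, the MICOS core protein mitofilin, one of 0.07. None of these 4 passed.

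The small TIM chaperones held the other 2 members with an unadjusted p under 0.05, in opposite directions. Timm13 works as a ring with Timm8 proteins. It stood at 6.97, 6.96, 7.02 and 6.84 on hemophagocytes 2, 3, 5 and 6 and at 6.80, 6.74, 6.48 and 6.71 on resting macrophages 3, 4, 5 and 6. The groups did not overlap, with hemophagocyte 6 and resting macrophage 3 only 0.04 apart. The means were 6.95 ± 0.08 and 6.68 ± 0.14, a change of 0.26 (SE 0.08) with limma adjusted p = 0.75. Every Timm13 value was above the receptor mean but below the 95th percentile of the receptor genes on its array, so no fold is given. Timm8b, a partner of Timm13, stood at 5.87, 5.74, 5.69 and 6.00 on hemophagocytes 2, 3, 5 and 6 and at 6.09, 6.04, 5.93 and 6.02 on resting macrophages 3, 4, 5 and 6. The groups overlapped through hemophagocyte 6, and the change was -0.20 (SE 0.08, limma adjusted p = 0.75). After quantile normalization, median centring or cyclic loess, Timm8b no longer had an unadjusted limma p under 0.05. Timm8b lay above the receptor mean only on resting macrophage 3, so detection on the other arrays cannot be told. The other Timm8 genes, Timm8a1 and Timm8a2, had changes of 0.05 and -0.04. Timm9 and Timm10, which form the ring that carries the metabolite carriers, had changes of 0.0017 and -0.10. Timm8a1 and Timm9 lay below the receptor mean on every array, so their detection cannot be told. None of these 6 passed, and no ring had all its measured subunits on 1 side of 0 beyond their intervals.

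The 8 inner membrane translocase genes changed by -0.15 to 0.14, with 6 of 8 below 0, and none passed. Timmdc1, which despite its name serves complex I assembly, had the smallest p, with hemophagocytes at 6.21, 6.29, 5.94 and 6.10 on arrays 2, 3, 5 and 6 and resting macrophages at 6.07, 5.95, 5.95 and 5.99 on arrays 3, 4, 5 and 6. Its groups overlapped, and the change was 0.14 (SE 0.08, limma adjusted p = 0.75). Timm22, the insertase for carriers, had a change of -0.13, and Timm29, which joins it to the outer membrane machinery, one of 0.0001. Of the TIM23 channel, Timm23 had a change of -0.08, Timm17a -0.09 and Timm17b -0.08, while the presequence receptor Timm50 had one of -0.04. Timm21, which links TIM23 to TOM, had the widest range over the arrays of the 34 members without a high array, 0.93. It was set by resting macrophage 5 at 5.70 against 4.77 to 5.22 elsewhere. Timm21 and Timm29 lay below the receptor mean on every array, so their detection cannot be told. Timm17a had a dimmer probe set with a change of 0.36, opposite in sign to the chosen one, so its probe sets disagreed. Timm23 had 3 further probe sets with changes of -0.04 to -0.10, of which 2 held identical values on all arrays and are not separate measurements.

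In the matrix motor, Pam16 was high on 1 hemophagocyte array. Pam16 holds the J-protein of the motor in check and is encoded in the nucleus like every gene of this group. It stood at 6.37, 6.47, 7.64 and 6.54 on hemophagocytes 2, 3, 5 and 6 and at 6.55, 6.64, 6.27 and 6.23 on resting macrophages 3, 4, 5 and 6. Only hemophagocyte 5 lay above the resting range. That value was still below the 95th percentile of the receptor genes on this array, 7.715. The dimmer probe set of Pam16 showed the array pattern again, with 7.15 on hemophagocyte 5 and 5.51 to 5.87 on the other 7. The change was 0.33 (SE 0.24, limma adjusted p = 0.78), and 0.04 without hemophagocyte 5. Dnajc19, the J-protein that Pam16 binds, had a change of 0.01 with resting and hemophagocyte values between 6.22 and 6.38. Grpel1, the nucleotide exchange factor of the motor, had a change of -0.17 and its paralog Grpel2 one of 0.03. Timm44, which tethers the motor to the channel, had a change of 0.05. Hspa9, the motor ATPase known as mortalin, had a change of -0.02 at levels below the receptor mean on every array, so detection cannot be told. None of these 6 genes passed.

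Hspd1 and Hspe1, the chaperonin of the matrix and its lid, were each high on few arrays. In the chosen probe sets these were different arrays, while the dimmer probe set of Hspd1 was high on hemophagocyte 5 as Hspe1 was. They are shown with their shared promoter because Hspd1, Tomm7 and Hspe1 had the widest ranges over the 8 arrays of all members (4.55, 3.12 and 2.56 log2 units) and because Hspd1 and Hspe1 are read from opposite strands of 1 stretch of DNA. RefSeq promoter windows (250 bases before to 50 after the start, GRCm38.p6) were found for 33 of the 38 members. None was found for Tomm7, Hspa9, Grpel2, Timm21 or Tomm40l, so their promoters were not searched. The windows of Hspe1 (chr1:55087898-55088197, plus strand) and Hspd1 (chr1:55087883-55088182, minus strand, 1 of its annotated starts) share 285 bases, and these 2 starts lie 216 bases apart. Capitals mark a run of alternating GAA and TTC units, the pattern known as a heat shock element, at bases 162 to 179 of the Hspe1 window and 107 to 124 of the Hspd1 window, counted from the 5′ end.
Hspe1: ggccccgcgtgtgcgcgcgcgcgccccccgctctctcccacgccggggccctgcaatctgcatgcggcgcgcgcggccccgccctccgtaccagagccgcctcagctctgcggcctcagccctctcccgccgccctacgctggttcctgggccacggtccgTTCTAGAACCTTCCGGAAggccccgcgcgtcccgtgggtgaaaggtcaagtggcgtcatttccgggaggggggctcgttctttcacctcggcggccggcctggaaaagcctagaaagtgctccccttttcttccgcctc
Hspd1: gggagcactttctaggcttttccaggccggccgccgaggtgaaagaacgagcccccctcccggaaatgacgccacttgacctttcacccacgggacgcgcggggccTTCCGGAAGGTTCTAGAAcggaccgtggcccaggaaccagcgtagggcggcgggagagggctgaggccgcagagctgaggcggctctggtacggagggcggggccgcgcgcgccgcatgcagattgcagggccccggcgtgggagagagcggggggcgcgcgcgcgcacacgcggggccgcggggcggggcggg
The search was for TTCNNGAANNTTC, whose reverse complement is GAANNTTCNNGAA, on both strands. It matched 198 of 32851 windows of this length (0.603%) and the windows of 3 members, Hspd1, Hspe1 and Timm9, of which the first 2 share 1 element. A match is a description of the letters only.

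Hspd1 (probe set 10354732) stood at 4.54, 8.52, 4.19 and 4.16 on hemophagocytes 2, 3, 5 and 6 and at 3.97, 4.29, 4.48 and 4.53 on resting macrophages 3, 4, 5 and 6. Hemophagocyte 3 alone was high, 4.14 above the gene's own median, and the other hemophagocytes lay within or at the edge of the resting range. The change of 1.03 (SE 0.80, limma adjusted p = 0.78) became -0.02 without hemophagocyte 3. The dimmer probe set of Hspd1 was high on both hemophagocyte 3 (6.81) and hemophagocyte 5 (6.64) and between 4.00 and 4.40 on the other 6 arrays, so the probe sets disagreed on hemophagocyte 5. The 7 low values of the chosen probe set were below the receptor mean, so detection there cannot be told.

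Hspe1 (probe set 10346303) stood at 4.63, 5.71, 7.07 and 5.35 on hemophagocytes 2, 3, 5 and 6 and at 7.14, 4.58, 4.90 and 4.77 on resting macrophages 3, 4, 5 and 6. The highest value was that of a resting array, followed by hemophagocyte 5, and both were above the receptor mean, unlike the other 6. Both were below the 95th percentile of the receptor genes on their arrays, 7.689 and 7.715. The groups overlapped, with means of 5.69 ± 1.02 and 5.35 ± 1.20 and a change of 0.34 (SE 0.59, limma adjusted p = 0.90). It was 0.94 without resting macrophage 3 and -0.12 without hemophagocyte 5. The dimmer probe set was high on these arrays again, at 7.43 on hemophagocyte 5 and 7.003 on resting macrophage 3, against 4.13 to 5.14 on the others. On resting macrophage 3, where Hspe1 was highest, both Hspd1 probe sets were low, at 3.97 and 4.25. On hemophagocyte 3, where Hspd1 was highest, Hspe1 was at 5.71 and its dimmer probe set at 5.09. The subunits of the processing peptidase, Pmpca and Pmpcb, had changes of -0.01 and -0.06 with standard deviations of at most 0.11 in either group. Pmpcb lay below the receptor mean on every array, so its detection cannot be told.

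**Figure D3:**
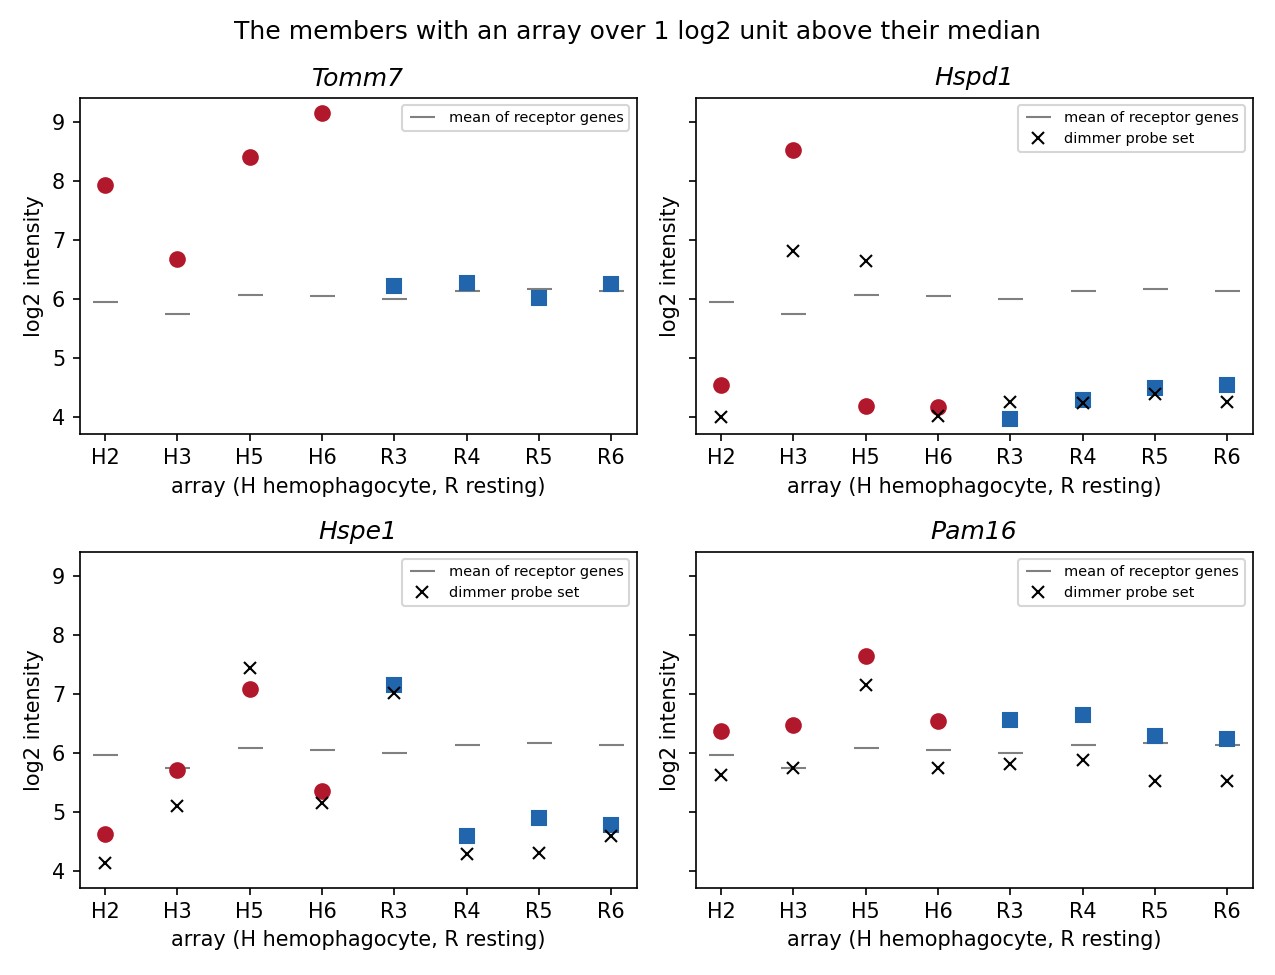
Log2 intensity on each array of the 4 members with any array more than 1 log2 unit above their own median (circles, hemophagocytes; squares, resting macrophages; crosses, the dimmer probe set where there is one; dashes, mean of the receptor genes on that array). Tomm7 is high on hemophagocytes 2, 5 and 6, Hspd1 on hemophagocyte 3, Hspe1 on hemophagocyte 5 and resting macrophage 3, and Pam16 on hemophagocyte 5.

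Tomm7, Hspd1, Hspe1 and Pam16 had an array more than 1 log2 unit above their own median, 4 of 38 members, against 1.49% of all genes. With Tomm7 picked from this contrast, nothing is read from its share of this count. Hemophagocyte 5 held 3 of the high values. Hemophagocytes 2, 3 and 6 and resting macrophage 3 held 1 each, and the other 3 resting arrays 0. Hemophagocyte 3, with 154 high genes over the whole table, was thus high in Hspd1 and the lowest hemophagocyte for Tomm7. The median over the 34 remaining members was 6.07 to 6.27 on the hemophagocyte arrays and 6.10 to 6.22 on the resting arrays, so the groups overlapped.

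Import genes outside the group were read from a list of 35 related genes, of which 30 were measured by a single-gene probe set. None of the 30 passed. At an unadjusted p under 0.05, 1 (3.33%) had a higher and 1 (3.33%) a lower value, beside 1.53% and 5.05% of all genes. The median change was -0.02, and 12 (40%) lay above 0, beside 36.1% of all genes. Hspa8, the cytosolic chaperone that delivers precursors to the outer membrane receptors, stood at 9.50, 11.20, 10.42 and 9.29 on hemophagocytes 2, 3, 5 and 6 and at 8.55, 8.76, 9.39 and 8.46 on resting macrophages 3, 4, 5 and 6. Hemophagocytes 3 and 5 were high, and hemophagocyte 6 lay below resting macrophage 5. The change was 1.31 (SE 0.37, limma adjusted p = 0.75). Mtch2, an insertase of the outer membrane, had a change of -0.30, the MICOS subunit Chchd3 one of -0.15 and the inner membrane protease Oma1 one of -0.14. Chchd4 and Gfer, which import and oxidise the small TIM proteins, had changes of -0.05 and 0.0064. Hsp90aa1, which also delivers precursors, had a change of 0.10.

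**Figure D4:**
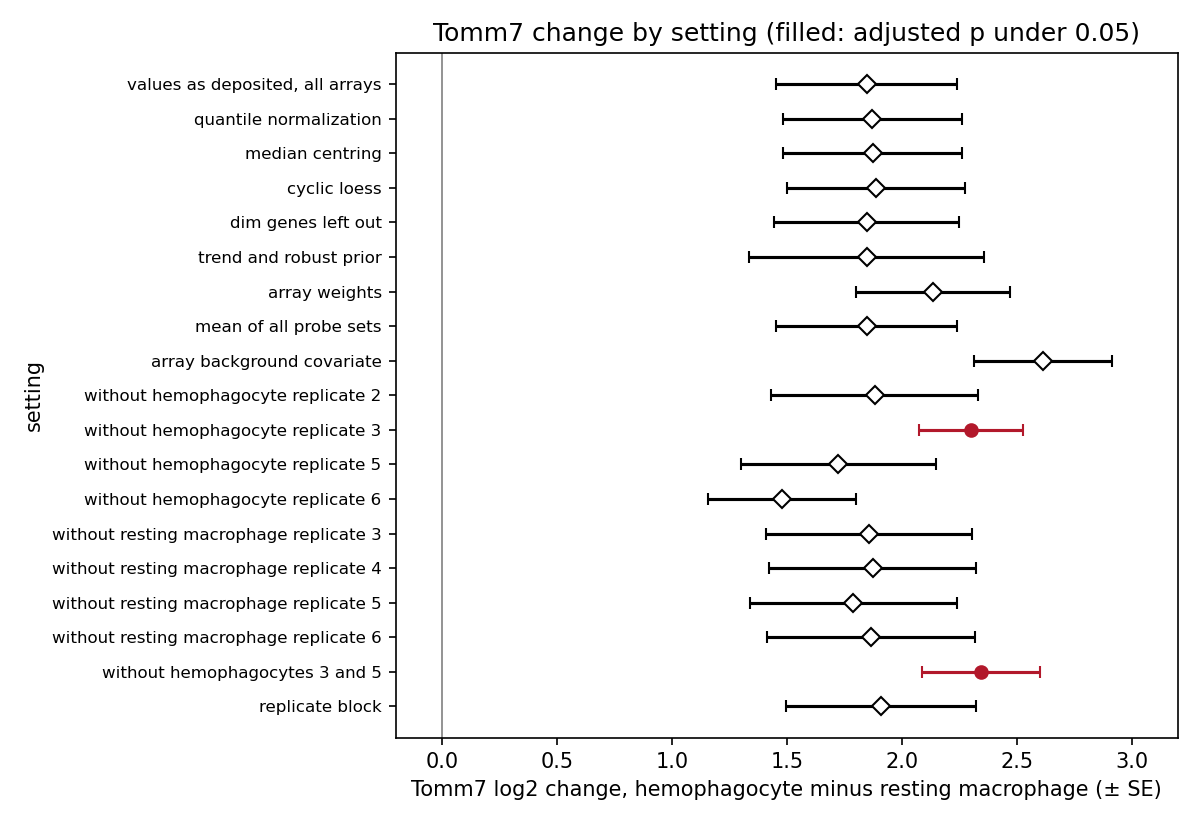
Log2 change of Tomm7 ± SE under the deposited values with all arrays and under 18 alternative settings. The change stays above 0 in all 18, from 1.48 without hemophagocyte 6 to 2.61 with the array background as a covariate. As the groups do not overlap, leaving out arrays cannot bring it to 0 or below. Only the fits without hemophagocyte 3 and without hemophagocytes 3 and 5 (filled) have an adjusted p under 0.05. Hemophagocyte 3 holds the lowest hemophagocyte value.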

How the data were processed

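The authors' deposited table gives log2 intensities (as judged from their range) of 35556 probe sets on 8 arrays. The submitters' processing notes name Affymetrix Expression Console 1.1. The background correction, probe summary and scaling are not stated there, nor is a build. Per the labels' protocols, RNA was amplified by WT-Ovation One-Direct, which from few cells can lose or overstate single transcripts.

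The platform annotation assigned 1 gene to 21789 probe sets, several to 1621 and none to 12146, which left 19938 genes. limma 3.58.1 (R 4.3.3; lmFit, eBayes, without block or dim filter) was fitted to all of them, with Benjamini-Hochberg adjustment at 0.05. Precision is limited by the 4 arrays per group. Simulated data for this comparison (20 draws, 19938 genes) returned 95.2% of log2 changes of 1 and 99.5% of those of 2, and 8.70 false calls a draw. Each draw held 200 changed genes and gave a gene the same normal spread in both groups. The real fit called only 2 genes, so these shares do not carry over to it. A member that was not called may still have changed.

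The members and all lists were chosen with earlier results of these data known. Named in each role were the 4 genes of smallest p and genes with an array more than 1 log2 unit over their median; remaining members follow in brief. Alternatives were 3 scalings, a dim filter, a trended robust prior, array weights, averaged probe sets, a background covariate, left-out arrays and a replicate block.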

Additional observations from a re-analysis of the deposited data

Results flagged for a closer look

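In 5 of 76 groups of 4 arrays (38 genes in 2 groups), 1 array stood apart from the other 3 by Dixon's test at its 95% critical value. Chance gives about 1 in 20, or 3.8 of 76. Hspd1 was at 8.52 on hemophagocyte 3, with the next hemophagocyte at 4.54. Hspe1 was at 7.14 on resting macrophage 3, with the next resting array at 4.90. Pam16 was at 7.64 on hemophagocyte 5, with the next hemophagocyte at 6.54. On the low side, Timm9 was at 4.55 on resting macrophage 3, with the next at 4.68, and Tomm34 was at 5.68 on resting macrophage 4, with the next at 5.88.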

How the results depend on the processing

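Over all genes limma called 2. It called 1 with median centring, cyclic loess, the trended robust prior and the background covariate, 7 with the replicate number as a block, and 1 to 11 with single arrays left out, the highest without hemophagocyte 2. Members called were 0, or 0 to 1 with single arrays left out, and 1 without hemophagocytes 3 and 5. That member was Tomm7 in both cases, and its lowest hemophagocyte array was then among those left out. Members at an unadjusted p under 0.05 were 4, with 1 under the background covariate and 2 without hemophagocytes 3 and 5. There were 2 to 5 with single arrays left out, the lowest without hemophagocyte 3 or resting macrophage 4. Which members these were also varied, with Tomm5 in place of Timm8b after quantile normalization. The median member change ran from -0.016 to 0.0066 with single arrays left out and was 0.026, 0.024 and 0.038 after quantile, median and cyclic loess scaling. Of 665 member changes under the alternatives, 588 kept their direction and call, 75 changed sign without a call, up to 12 of them in 1 setting (the background covariate), and 2 were newly called. The cause of these shifts was not tested. The replicate numbers 3, 5 and 6 occur in both groups. Deviations of arrays with the same number correlated at 0.17, 0.066 and 0.12 over genes. For hemophagocytes 3 and 6 this was the highest correlation with any resting array. Hemophagocyte 5 correlated more with resting macrophages 4 and 6, at 0.104 each. The highest of all, 0.184, joined hemophagocyte 2 and resting macrophage 3. Whether the numbers mark a shared day or batch cannot be told, and the main fit did not use them. With the block Tomm7 had a change of 1.91 (limma adjusted p = 0.63), and 0 members were called. Members below the receptor mean on every array (9 of 38) were Hspa9, Mtx2, Pmpcb, Timm21, Timm29, Timm8a1, Timm9, Tomm20 and Tomm70a. This limits what can be said of their levels.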
